A study of Rattus norvegicus with 24 samples.

Results

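The genes described here encode the proteins of the cytosolic ribosome, measured in the ventricles of diabetic and control rats. They were taken as every probe set with a single gene symbol that begins with Rpl or Rps and a digit, or with Rplp, leaving out the S6 kinases and pseudogenes, with 1 probe set per gene, the one with the highest mean log2 signal over all 24 arrays. This gave 40 genes, 29 of the large and 11 of the small subunit, among 4736 genes with a single symbol. They were covered by 57 of the 8740 probe sets that are not array controls. Rpl3l, the striated muscle paralog of Rpl3, was kept apart. The symbols Rpl19l4, Rpl36al1, Rps27l and Rplp1l3 name paralogous loci rather than the standard genes and were kept because the rule takes them.

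The study used 24 male Wistar rats that weighed 150 g when injected, and total RNA from the ventricles of each animal was hybridised to 1 Affymetrix RG-U34A oligonucleotide array. The 3 diabetic groups had received 65 mg/kg streptozotocin, which kills pancreatic beta cells and so removes insulin, and were examined 3, 28 or 42 days later, with 4 animals each. The 3 control groups, also of 4 animals each, had received citrate buffer and were examined at the same days. No genetic change was labelled in any group. The study's design text ties day 28 to diastolic dysfunction and day 42 to diastolic and systolic dysfunction. Blood glucose lay between 500 and 769 mg/dL in diabetic animals and between 103 and 156 mg/dL in control animals. At day 42 the diabetic animals weighed 112 to 126 g, less than at injection, against 413 to 472 g for the control animals. Their ventricles weighed 0.35 to 0.4 g, against 0.9 to 1.17 g, so that the groups also differed in body and heart weight.

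The ribosome is built from a small subunit, which reads the messenger RNA, and a large subunit, which forms the peptide bonds, and each ribosomal protein occurs in about equal number in the assembled particle. Transcripts of ribosomal protein genes begin with a tract of pyrimidines, the terminal oligopyrimidine or TOP motif, through which their translation follows the activity of the mTOR kinase and so of insulin and nutrients. In the heart, ribosome number is known to follow the growth of the muscle cells.

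The TOP tract is looked for at the start of transcription. The 30 bases around the annotated start of transcription are shown for 5 genes that rose at day 42 and for Rpl3l, which fell. The 5 were picked to show unbroken tracts, of 8 to 18 bases, at the start, and so are not typical of all. Sequences are from RefSeq on build GRCr8, written 5′ to 3′ on the strand of the gene, and the capitals mark the longest run of C or T in the window.
Rps10, chr20:5700730-5700759, minus strand: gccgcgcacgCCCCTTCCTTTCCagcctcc
Rpl31, chr9:49143096-49143125, plus strand: ccacaatccctcgcgCCTTTCCTTTCCaac
Rpl35, chr3:43165907-43165936, minus strand: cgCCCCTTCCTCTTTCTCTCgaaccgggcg
Rps15, chr7:10068101-10068130, minus strand: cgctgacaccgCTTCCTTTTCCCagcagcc
Rplp0, chr12:46718376-46718405, minus strand: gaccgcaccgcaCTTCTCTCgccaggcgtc
Rpl3l, chr10:14258431-14258460, plus strand: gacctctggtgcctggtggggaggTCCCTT

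The runs of Rps10, Rpl35, Rps15 and Rplp0 span the annotated start, and that of Rpl31 begins at it. In Rpl3l the run in capitals lies after the start. Of the 40 genes, 36 matched a RefSeq promoter. A run of at least 7 bases that are all C or T lay within 20 bases of the start, on the strand of the gene, in 26 of the 36 (72.2%), against 6500 of all 27457 promoters (23.7%). On the other strand the same search found 3 of the 36 (8.33%), against 25.5% of all promoters. With runs of at least 10 bases the shares on the gene strand were 55.6% for the ribosomal protein genes and 6.95% for all promoters. By this search a run of at least 7 lay in 16 of the 19 genes that rose at day 42 and in 10 of the 16 with a promoter that were tested and did not pass. Rpl3, Rpl6 and Rps16 rose with longest runs of 5, 5 and 6 bases, and Rpl3l, which fell, had a run of 9 within 20 bases of its start, so that such runs did not set Rpl3l apart. A match is a description of the letters, not a mapped start of transcription.

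Taken array by array, the family stood apart in diabetic ventricles at the 2 later days. For each array, the log2 signal of each of the 39 genes that passed the filter on dim probe sets was set against its own mean over the 24 arrays, and the median deviation was taken. At day 3 it lay between -0.20 and 0.12 in diabetic arrays and between -0.21 and -0.05 in control arrays, and the groups overlapped. At day 28 it lay between 0.11 and 0.32 in diabetic arrays and between -0.06 and 0.02 in control arrays. At day 42 it lay between 0.21 and 0.33 in diabetic arrays and between -0.27 and -0.09 in control arrays. Neither of the later days had an array of one group within the range of the other. The members' part of the summed signal of an array was 3.90 to 4.17% in diabetic animals at day 42, against 2.83 to 3.09% in control animals. In RNA from whole ventricle, fewer cells of a type and less RNA per cell cannot be told apart.

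**Figure D1:**
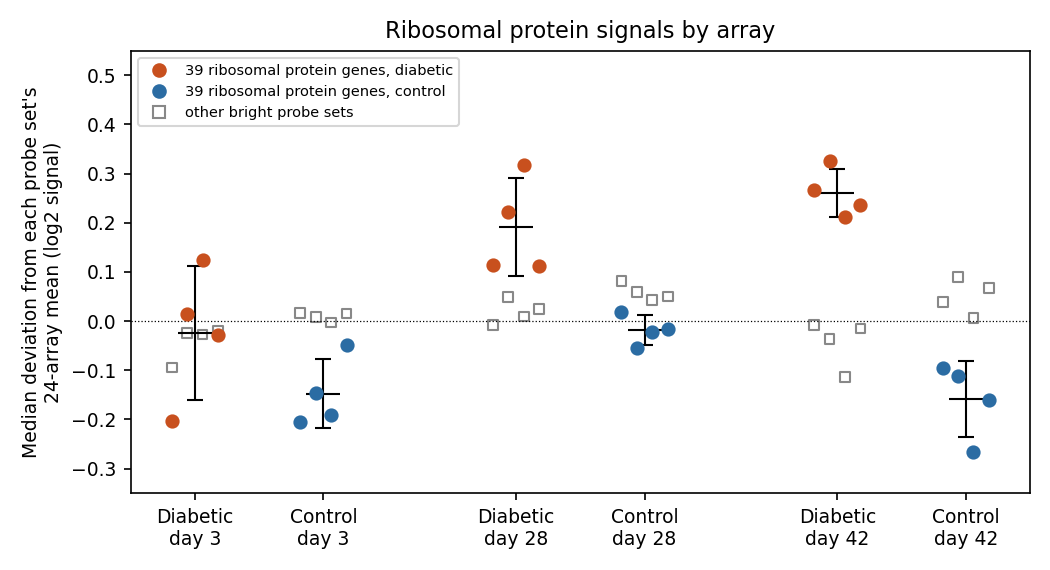
Median deviation of 39 ribosomal protein genes from their 24-array means, in log2 units, for each array by group and day, with filled points for arrays and bars for the group mean ± SD of 4 arrays. Open squares give the same median for 843 other probe sets with a mean log2 signal of at least 12. At day 42 the diabetic arrays lie between 0.21 and 0.33 and the control arrays between -0.27 and -0.09, while the open squares lie between -0.11 and 0.09.

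At day 42 ribosomal protein genes were higher in diabetic ventricles as a family, by a modest factor each. Of the 39 genes tested, 19 rose and 0 fell at an adjusted p under 0.05 (limma, Benjamini-Hochberg over all probe sets kept). Among all 5244 probe sets kept, 304 rose (5.8%) and 295 fell (5.63%). The median log2 difference, diabetic minus control, was 0.43 over the 39 genes, a 1.35-fold difference, against -0.03 over all probe sets kept, and 37 of the 39 values were above 0. In 29 of the 39 genes all 4 diabetic arrays lay above all 4 control arrays, which held for 9% of all probe sets kept. The 19 rises ran from 0.32 to 0.79 on the log2 scale, or 1.25-fold to 1.73-fold, and comprised 7 of 11 small subunit and 12 of 28 large subunit genes. Another 10 genes had an unadjusted p under 0.05 and did not pass. Most members are bright, and of the 843 other probe sets with a mean log2 signal of at least 12, 8.54% rose at day 42 with a median of -0.12.

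**Figure D2:**
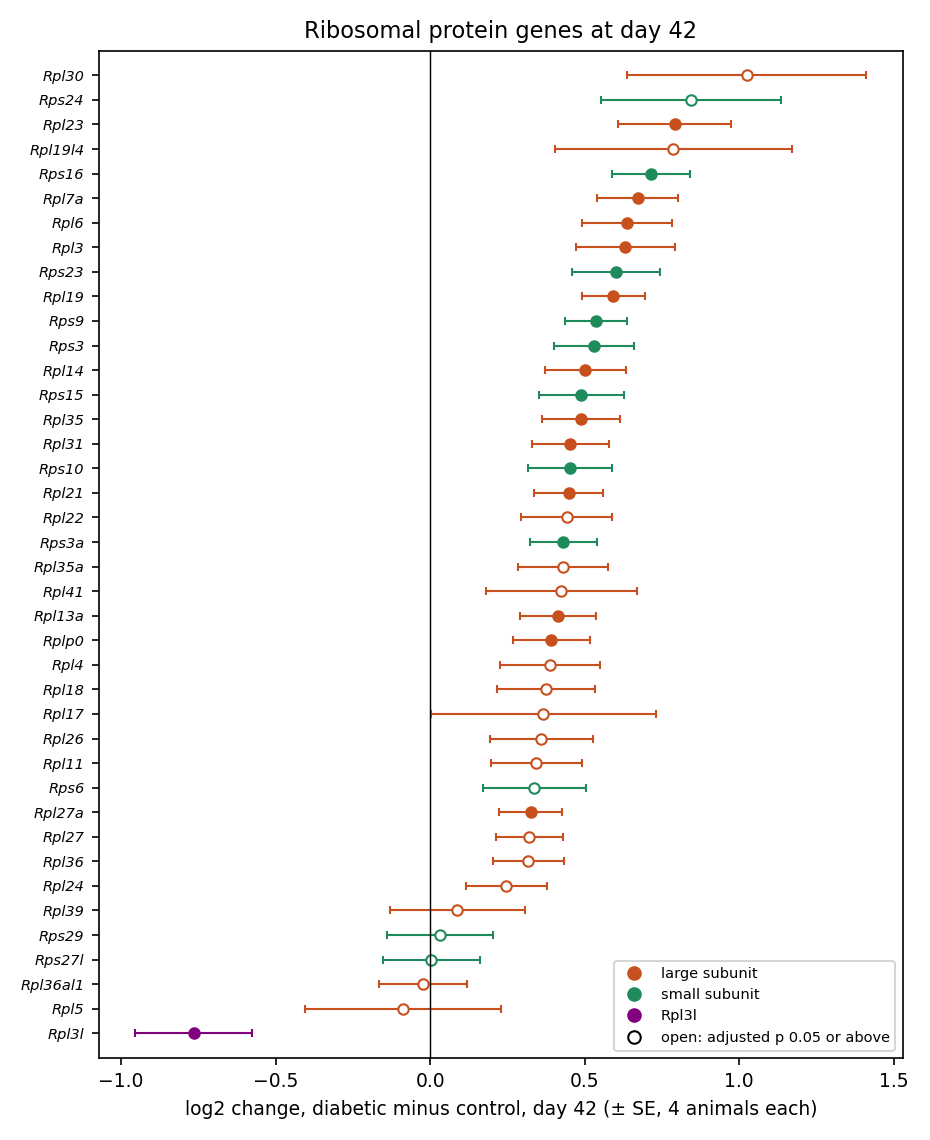
Log2 difference between diabetic and control ventricles at day 42 for each of the 39 ribosomal protein genes and Rpl3l, with bars for ± 1 SE and 4 animals per group. Filled points passed an adjusted p under 0.05; 19 ribosomal protein genes lie to the right among them, and Rpl3l lies at -0.77.

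In the small subunit, the 7 genes that rose were Rps3, Rps3a, Rps9, Rps10, Rps15, Rps16 and Rps23, whose proteins include several that line the path of the messenger RNA or reach the decoding site. Signals of Rps16, whose tail contacts the transfer RNA in the decoding region, were 31077, 28551, 29291 and 26066 in diabetic animals at day 42, against 18259.5, 18660.3, 15886 and 17276 in control animals. The lowest diabetic value was well above the highest control value, and the log2 difference was 0.71 ± 0.13 (SE), or 1.64-fold (adjusted p = 0.000274, limma with Benjamini-Hochberg). Rps9 had signals of 30709.9, 28737, 27434 and 25328 in diabetic animals and 18511, 20581, 18474 and 19708 in control animals. These groups were also fully apart, with a log2 difference of 0.54 ± 0.10 (adjusted p = 0.000533, limma with Benjamini-Hochberg). Rps23, a protein of the decoding centre, gave 18348, 19004, 18608 and 17176 in diabetic animals, against 13147, 12889.6, 11061 and 11233 in control animals. Its diabetic arrays lay close together, and its log2 difference was 0.60 ± 0.14 (adjusted p = 0.00512, limma with Benjamini-Hochberg). Rps3 and Rps3a, which sit on the entry and exit sides of the messenger RNA, rose by 0.53 and 0.43 on the log2 scale. For Rps10 and Rps15 the values were 0.45 and 0.49.

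The 4 small subunit genes that did not pass were Rps6, Rps24, Rps27l and Rps29. Rps6 encodes the substrate for which the S6 kinases are named. Its signals at day 42 were 25560.5, 25863, 23503 and 24513 in diabetic animals, against 21276, 21664, 17200.1 and 18879 in control animals. The groups did not overlap, but the log2 difference of 0.34 ± 0.17 did not pass (adjusted p = 0.231, limma with Benjamini-Hochberg). At day 28, array 3 gave the highest Rps6 signal of its group in both diabetic and control animals, at 46069.6 and 41930.1. Rps24, a protein needed to process the precursor of the small subunit RNA, had a log2 difference of 0.84 ± 0.29 on the probe set chosen (adjusted p = 0.0627, limma with Benjamini-Hochberg). Rps27l and Rps29 had values of 0.00 and 0.03.

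In the large subunit, Rpl19 had the smallest adjusted p at day 42. Its protein lies near the exit of the tunnel through which the new chain leaves and also bridges the subunits. Signals were 36624, 35594, 31793 and 37466 in diabetic animals, against 24507, 24684, 20968 and 23676 in control animals. Every diabetic array was above every control array, and the log2 difference was 0.59 ± 0.10, or 1.51-fold (adjusted p = 0.000186, limma with Benjamini-Hochberg). Of the other proteins at the tunnel exit, Rpl31 and Rpl35 rose by 0.45 and 0.49. On the probe sets chosen, Rpl26, Rpl17 and Rpl22 did not pass, at 0.36, 0.37 and 0.44. The other probe set of Rpl26 did pass, at 0.56 (adjusted p = 0.00255, limma with Benjamini-Hochberg). That of Rpl17 chosen here was dimmer than those shared with its copies, which rose, as given below. Rpl39, which lies inside the tunnel, had a value of 0.09, and Rpl4, at its constriction, one of 0.39; neither passed.

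Rpl23, which lies on the face of the large subunit that meets the small one, had the largest of the 19 rises. Its signals were 28988, 36189, 38188 and 35475 in diabetic animals, against 21350.1, 21923, 17875 and 18974 in control animals. The log2 difference was 0.79 ± 0.18, or 1.73-fold (adjusted p = 0.00421, limma with Benjamini-Hochberg), and the groups were apart. Rpl7a gave 34795, 32436, 27399.7 and 28564 in diabetic animals, against 18714, 20206, 17296 and 20998 in control animals, a log2 difference of 0.67 ± 0.13 (adjusted p = 0.000778). Rpl6 gave 19768, 18277, 13948 and 17018 in diabetic animals, against 10554, 11579, 10789.9 and 11171 in control animals, and its log2 difference was 0.64 ± 0.15 (adjusted p = 0.00381). In both genes the groups did not overlap, and the control arrays of Rpl6 were closer together than its diabetic arrays. Rpl14, Rpl21, Rpl13a and Rpl27a rose by 0.50, 0.45, 0.41 and 0.32 on the log2 scale, and Rpl27a was the smallest rise to pass.

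The stalk of the large subunit recruits the elongation factors, and Rplp0 forms its base. Rplp0 signals at day 42 were 55516, 48888, 50099 and 47712 in diabetic animals, against 35136, 39875, 36529 and 42769.9 in control animals. They were apart by group, with a log2 difference of 0.39 ± 0.13 (adjusted p = 0.0432, limma with Benjamini-Hochberg). Rplp2, one of the stalk's acidic proteins, was represented by a probe set annotated also to 2 of its copies and so lies outside the 40 genes. That probe set gave 36312, 34028, 32622 and 33557 in diabetic animals, against 24094, 27605, 23266 and 27287 in control animals, again with no overlap, and rose by 0.42 on the log2 scale (adjusted p = 0.013). The stalk protein copy Rplp1l3 was too dim to pass the filter, with signals of 4.1 to 137.7 over the 24 arrays. No probe set of Rplp1 or of the ubiquitin fusion gene Rps27a was named with a single symbol here.

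Several calls at day 42 depended on single arrays. When 1 of the 8 arrays was left out, between 13 and 19 genes rose. Of the 19 genes, 13 passed without any 1 array. The call for Rps15 was lost without diabetic replicate 1 or control replicate 3 (adjusted p = 0.078 and 0.0679, limma with Benjamini-Hochberg), and that for Rpl31 without diabetic replicate 2 or control replicate 3 (adjusted p = 0.0562 and 0.0706). Leaving out diabetic replicate 2 or 4 or control replicate 2, 3 or 4 ended the call for Rpl13a (adjusted p between 0.0513 and 0.0904). For Rpl27a these were diabetic replicates 3 and 4 and control replicates 1, 3 and 4 (0.0694 to 0.122). For Rps10 they were diabetic replicates 1 and 2 and each control replicate (0.0607 to 0.11), and for Rplp0 each array but control replicate 4 (0.0578 to 0.13). The log2 differences stayed above 0 in each of these fits, at 0.27 or more. With each array centred on its median instead of the scaling of the deposited signals, 10 genes rose at day 42 and the median difference was 0.43.

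Among the 20 genes that did not pass at day 42, 3 had log2 differences about as large as the largest rise or larger, with larger SEs. Rpl30 had 1.02 ± 0.39 (adjusted p = 0.0964, limma with Benjamini-Hochberg) and signals of 499, 553, 476 and 491 in diabetic animals, against 576, 251, 215 and 121 in control animals. One control array was the highest of all 8, so the groups overlapped. Rpl19l4 had 0.79 ± 0.38, also with overlapping groups, and Rps24, whose groups did not overlap, 0.84 ± 0.29. The lowest values were those of Rpl5 (-0.09), Rpl36al1 (-0.02), Rps27l (0.00) and Rps29 (0.03). Rpl5 and Rpl11 form, with a small ribosomal RNA, the particle that can bind Mdm2, and Rpl11 had 0.34 ± 0.15 (adjusted p = 0.153). The remaining genes, Rpl18, Rpl24, Rpl27, Rpl35a, Rpl36 and Rpl41, lay between 0.25 and 0.43.

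Rpl3 and Rpl3l moved in opposite directions at day 42. Rpl3 lies by the peptidyl transferase centre of the large subunit, and Rpl3l takes its place in ribosomes of heart and skeletal muscle. Rpl3 signals at day 42 were 8166, 8262, 14471 and 7744 in diabetic animals, against 6626, 5690.0, 5848 and 5958 in control animals. Diabetic array 3 was far above the others, and the remaining diabetic arrays also lay above every control array. The log2 difference was 0.63 ± 0.16 (adjusted p = 0.00876, limma with Benjamini-Hochberg), and it passed without each array in turn. Rpl3l signals were 6229, 5714, 4331 and 5208 in diabetic animals, against 9146, 8769, 8022 and 10427 in control animals. Here every diabetic array lay below every control array, and Rpl3l fell by 0.77 on the log2 scale, a 1.7-fold difference (SE 0.19, adjusted p = 0.0068, limma with Benjamini-Hochberg). Of all probe sets kept, 5.63% fell. Of the 39 genes of the family, 0 fell at this day.

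Each of the 2 genes had a second, dimmer probe set. For Rpl3 it gave 8239, 6862, 14064 and 5695 in diabetic animals, against 4717, 4888, 4627 and 4618 in control animals, and rose by 0.80 on the log2 scale (adjusted p = 0.0158, limma with Benjamini-Hochberg), again with array 3 the highest. For Rpl3l it gave 5123, 4224, 2600.5 and 3679.6 in diabetic animals, against 5489.7, 5719, 5410.0 and 5853 in control animals. Those groups did not overlap either, but the log2 difference of -0.57 ± 0.21 did not pass (adjusted p = 0.0877). In diabetic array 3 both Rpl3 probe sets had their highest and both Rpl3l probe sets their lowest day 42 signal. At day 3 the Rpl3l difference was -0.18 ± 0.19 and at day 28 -0.29 ± 0.19, and neither passed; Rpl3 had 0.14 and -0.10 at those days.

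**Figure D3:**
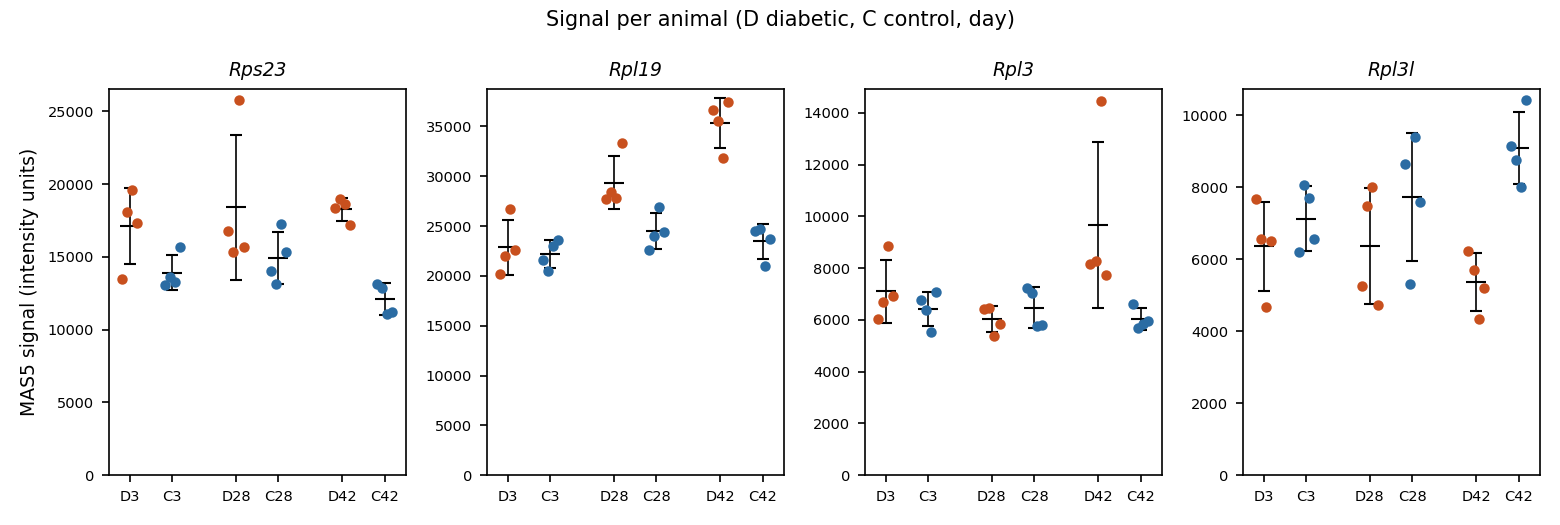
MAS5 signal of each animal for Rps23, Rpl19, Rpl3 and Rpl3l by group (D diabetic, C control, number for the day), with bars for the mean ± SD of 4 animals and the axis starting at 0. At day 42 the diabetic points of Rps23, Rpl19 and Rpl3 lie above the control points, while those of Rpl3l lie below.

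Probe sets outside the choice of 1 per gene gave a like picture at day 42. The 14 genes with several probe sets had 17 others, of which 7 rose and 0 fell, with a median of 0.49. Where a gene's probe sets differed most, Rpl21 had 3 others at 0.70, 0.13 and 0.00, of which the first passed, beside 0.45 on its brightest. Rps15 had others at 0.52 and -0.03, neither of which passed, beside 0.49. Rpl26 passed on its other probe set, at 0.56 (adjusted p = 0.00255, limma with Benjamini-Hochberg), and not on the brighter one. A further 40 probe sets carry several ribosomal symbols, mostly a gene and its near-identical copies, and 38 were kept. Of these 28 rose at day 42 and 0 fell, with values from 0.26 to 0.96 and a median of 0.52, and in 35 the groups did not overlap. They include Rpl10 with 0.96, the largest, Rpl23a with 0.91, Rps19 with 0.75 and Rps4x with 0.50 and 0.68 on 2 probe sets. A probe set of the pseudogene Rps4x-ps9 alone also rose, by 0.79 (adjusted p = 0.0185). Arrays of this type cannot tell transcripts of near-identical copies apart, and 17 of the 40 genes' probe sets carry a name suffix by which the maker marks shared or incomplete probe sets.

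At day 3 none of the 39 genes passed the test of diabetic against control ventricles, with 0.934% of all probe sets kept passing in either direction. The smallest adjusted p was 0.264 for Rps3a (limma, Benjamini-Hochberg), 2 genes had an unadjusted p under 0.05, and 34 of 39 values were above 0 with a median of 0.14. The groups did not overlap in 2 genes, both higher in diabetic animals, against 3.05% of all probe sets kept. The highest values were those of Rpl19l4 (0.32), Rps3a (0.30), Rps23 (0.29) and Rps16 (0.27). The lowest were those of Rps24 (-0.51), Rpl17 (-0.42), Rpl30 (-0.26) and Rpl5 (-0.18).

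At day 28 again none of the 39 genes passed, against 2.1% of all probe sets kept in either direction. The smallest adjusted p was 0.0723 for Rpl7a (limma, Benjamini-Hochberg), and 12 genes had an unadjusted p under 0.05. The median was 0.23, against -0.06 over all probe sets kept, and 34 values were above 0. The groups did not overlap in 5 genes, all higher in diabetic animals, namely Rpl7a, Rps9, Rpl27a, Rpl19 and Rpl35a, where the share among all probe sets kept was 2.75%. Rpl7a had signals of 23799, 25124, 26171 and 22702 in diabetic animals, against 21557, 19349, 13294 and 18139.5 in control animals, a log2 difference of 0.46 ± 0.13. Control array 3 was the lowest by a wide margin. Rps9 had 23953, 27090.4, 27482 and 22683 in diabetic animals, against 22322, 20014, 16517 and 21284 in control animals, a log2 difference of 0.34 ± 0.10 (adjusted p = 0.0852). The highest values were those of Rpl17 (0.52), Rpl19l4 (0.46), Rpl7a (0.46) and Rpl30 (0.40), and the lowest those of Rpl36al1 (-0.27), Rpl4 (-0.15), Rpl22 (-0.11) and Rpl3 (-0.10). Of the 38 probe sets with several symbols, 6 rose at day 28 and 0 at day 3, among them that of Rps24, by 0.48 (adjusted p = 0.0127, limma with Benjamini-Hochberg). Of the 17 other probe sets of the 39 genes, 1 rose at day 28, that of Rpl35, by 0.63 with the groups apart (adjusted p = 0.0293). The probe set of Rpl35 chosen here had 0.35 and did not pass.

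The 3 medians of 0.14, 0.23 and 0.43 come from separate animals at each day. Diabetic animals weighed 144 to 157 g at day 3, 205 to 265 g at day 28 and 112 to 126 g at day 42, so the days also differed in body weight. The log2 difference between diabetic and control ventricles was above 0 at all 3 days in 29 of the 39 genes. It was largest at day 42 in 30, and increased with each later day in 21. A test of the change in the diabetic effect itself was passed by few probe sets of any kind. Between days 42 and 28, 0 of the 39 genes passed, against 0.973% of all probe sets kept, and 7 had an unadjusted p under 0.05 with a smallest adjusted p of 0.189 (limma, Benjamini-Hochberg). Between days 28 and 3, 0 passed and 2 had an unadjusted p under 0.05, where 0% of all probe sets kept passed. Between days 42 and 3 only Rpl19 passed, against 1.87% of all probe sets kept, with an effect larger by 0.55 ± 0.14 at day 42 (adjusted p = 0.0424). Its signals at day 3 were 20158, 22002, 26714 and 22638 in diabetic animals and 21581, 20481, 22958 and 23624 in control animals, with full overlap. That call was lost when any of 13 of the 16 arrays concerned was left out, with adjusted p between 0.0541 and 0.114; it held without diabetic day 3 replicate 3, control day 3 replicate 2 and diabetic day 42 replicate 3. The largest change between days 42 and 3 was that of Rps24, 1.36 ± 0.41 (adjusted p = 0.108).

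**Figure D4:**
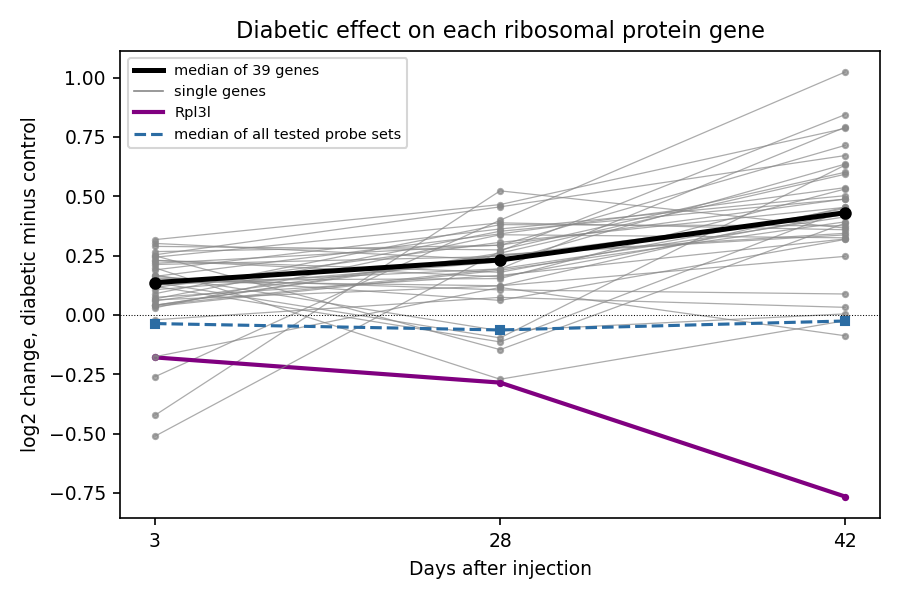
Log2 difference between diabetic and control ventricles for each of 39 ribosomal protein genes (grey lines), their median (black), Rpl3l (purple) and the median of all 5244 probe sets kept (dashed), at 3, 28 and 42 days after injection. The black line runs through 0.14, 0.23 and 0.43, and Rpl3l through -0.18, -0.29 and -0.77.

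The course with time was followed within diabetic and within control animals. In diabetic animals, day 28 against day 3, 4 of 39 genes rose and 0 fell, where 1.7% of all probe sets kept rose and 4.18% fell. They were Rpl30 (1.46), Rpl17 (1.30), Rpl35 (0.43) and Rpl19 (0.36), with adjusted p of 0.0312, 0.0379, 0.0474 and 0.0369 (limma, Benjamini-Hochberg). Rpl5 had the third highest value, 0.76, and Rpl23 the next, 0.46, and neither passed. At the low end stood Rpl3 (-0.23), Rpl18 (-0.16), Rpl4 (-0.13) and Rps24 (-0.12). These 4 rises were not stable, since leaving out 1 array ended the call for Rpl17 in 4 of 8 cases and for Rpl30, Rpl35 and Rpl19 in 6 of 8 each. In those fits the adjusted p lay between 0.052 and 0.153. The arrays at issue for Rpl17 were diabetic day 28 replicates 2 and 3 and day 3 replicates 2 and 4. For Rpl30 all but day 28 replicate 4 and day 3 replicate 3 mattered, and for Rpl35 and Rpl19 all but day 28 replicate 1 and day 3 replicate 3.

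In control animals, day 28 against day 3, 0 of 39 genes passed, against 7.44% of all probe sets kept, with 8 at an unadjusted p under 0.05 and a smallest adjusted p of 0.0581 for Rpl36al1 (limma, Benjamini-Hochberg). The highest values were those of Rpl30 (0.80), Rpl5 (0.47), Rpl36al1 (0.44) and Rps27l (0.38), and the lowest those of Rps24 (-0.90), Rpl18 (-0.45), Rps10 (-0.30) and Rpl27a (-0.20).

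Day 42 against day 28 gave both rises and falls in diabetic animals. There 4 of 39 genes rose (10.3%, against 6.96% of all probe sets kept) and 4 fell (10.3%, against 7.97%). Both counts lay near the share among all probe sets. Rpl3 rose by 0.63, Rplp0 by 0.54, Rps15 by 0.53 and Rps10 by 0.43, with adjusted p of 0.0089, 0.00484, 0.0113 and 0.0355 (limma, Benjamini-Hochberg). Rplp0 signals at day 28 were 36852, 38146, 34833 and 29311 in diabetic animals, all below the day 42 values. The 4 that fell were Rpl5 (-1.995), Rpl19l4 (-1.98), Rpl17 (-1.51) and Rps24 (-1.10), with adjusted p from 0.00014 to 0.0117. The call for Rps10 was lost without diabetic day 42 replicate 1 or 2 or day 28 replicate 2, 3 or 4 (adjusted p between 0.0671 and 0.12). That for Rps15 was lost without day 42 replicate 1 (0.0506), and that for Rps24 without day 28 replicate 3 (0.0509).

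In control animals, day 42 against day 28, 7 of 39 genes fell (5.03% of all probe sets kept) and 0 rose (4%). They included the same 4 genes, with log2 differences of -2.30 for Rpl19l4, -1.79 for Rpl5, -1.68 for Rps24 and -1.36 for Rpl17. For Rpl30, Rpl23 and Rpl21, which fell as well, the differences were -1.42, -0.65 and -0.35, with adjusted p of 0.0235, 0.0283 and 0.0496 (limma, Benjamini-Hochberg). The highest values, none of which passed, were those of Rplp0 (0.34), Rps15 (0.33), Rps10 (0.28) and Rpl18 (0.23). Leaving out 1 control array at a time gave between 3 and 9 calls. Those of Rpl19l4, Rpl5 and Rps24 held in each of these fits. Rpl17 was lost without day 42 replicate 3 or day 28 replicate 3 or 4, and Rpl30 and Rpl23 without those or day 42 replicate 4. Rpl21 was lost without any array but day 28 replicate 2. Adjusted p in those fits ran from 0.0519 to 0.154. Both course comparisons of a group share its day 28 arrays.

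The 4 genes lower at day 42 in both groups had day 42 signals of 130.0 to 1369, where array medians lay between 321.4 and 442.9. Of the 4, only Rpl5 lay under every array median at day 42. Rpl5 signals were 139, 136, 154 and 154 in diabetic and 161, 165, 166 and 130.0 in control animals at day 42. At day 28 they were 465, 529.7, 1311 and 352 in diabetic and 475, 351, 872 and 566 in control animals. Array 3 was the highest at day 28 in both groups for Rpl5, and likewise for Rpl17, Rpl19l4 and Rps24. Signals of Rps24 were 894, 896, 863 and 1009 in diabetic animals at day 42, against 497, 701, 361 and 535 in control animals. Rpl19l4 gave 884, 816, 1285 and 1369 in diabetic animals at day 42, against 628, 968, 406 and 582 in control animals, and Rpl17 gave 613, 499.7, 547 and 404, against 414, 500.4, 281 and 423. At day 28 Rps24 averaged 2003 ± 499 in diabetic and 1825 ± 998 in control animals, Rpl19l4 4462 ± 1998 and 3746 ± 2599, and Rpl17 1658 ± 1086 and 1164 ± 585 (SD, n = 4 each).

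Brighter probe sets named for some of these genes together with a copy did not pass between days 42 and 28, except 1 of Rpl17 in control animals. The probe set of Rpl5 and Rpl5l1 had log2 differences of 0.07 in diabetic and -0.07 in control animals between days 42 and 28. That of Rps24 and its pseudogene had 0.05 and -0.08, and that of Rpl30 and its copies 0.12 and -0.03. One of 2 such probe sets of Rpl17 had 0.19 in diabetic animals and fell by 0.46 in control animals (adjusted p = 0.0271, limma with Benjamini-Hochberg), and the other had 0.22 and -0.36. Rpl19, the standard gene beside Rpl19l4, had 0.27 in diabetic and -0.06 in control animals. At day 42 those probe sets of Rpl5 and Rps24 rose in diabetic against control animals by 0.36 and 0.60, and the pair of Rpl17 by 0.76 and 0.88. All day 42 arrays were scanned on 1 day by 1 operator, and no array of the other days was, so that collection day and scan day cannot be told apart in these course comparisons.

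**Figure D5:**
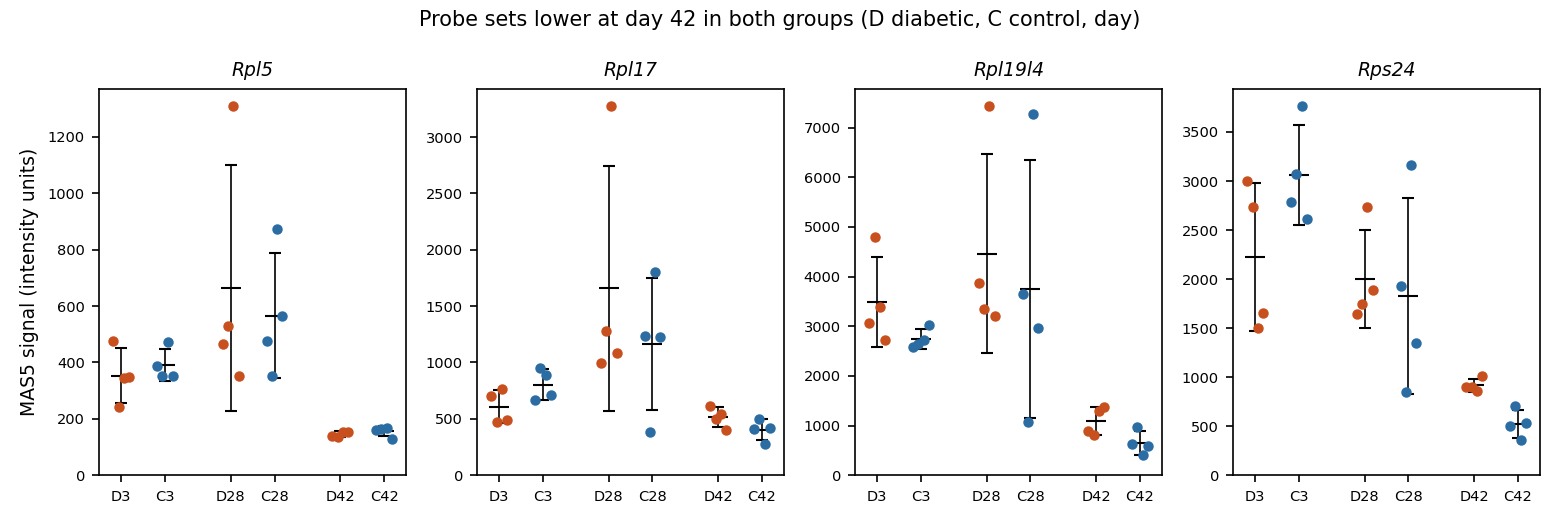
MAS5 signal of each animal for the probe sets of Rpl5, Rpl17, Rpl19l4 and Rps24 by group (D diabetic, C control, number for the day), with bars for the mean ± SD of 4 animals. In each panel both day 42 groups lie low, and the highest point of both day 28 groups is array 3.

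Genes that work with the ribosome were set beside the family at day 42 against the background of 5.8% risen and 5.63% fallen. Rpsa and Rack1, proteins of the small subunit whose symbols fall outside the rule, both rose. Rack1, a scaffold on the head of the small subunit, gave 21852, 19262, 16741 and 15234 in diabetic animals, against 10283, 11221, 9447 and 10747 in control animals, a log2 difference of 0.80 ± 0.12 (adjusted p = 3.63e-05, limma with Benjamini-Hochberg). Rpsa gave 24042, 23188, 21446 and 22453 in diabetic animals, against 15472, 16828, 16114 and 17288 in control animals, with 0.47 ± 0.12 (adjusted p = 0.00654). Neither gene had an array of one group within the other. A list of 10 genes outside the rule known to carry a TOP motif includes these 2. Only these 2 rose, 0 fell, and the median of all 10 was 0.34. The elongation factors among the 10 did not pass, with 0.49 for Eef1a1, 0.38 for Eef1g and 0.30 for Eef2 (adjusted p = 0.109, 0.0582 and 0.158, limma with Benjamini-Hochberg). Hnrnpa1 (0.56), Naca (0.02), Nap1l1 (-0.01), Eif4a2 (-0.04) and Vim (-0.33) did not pass either.

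Of 20 translation factors and their kinases, 0 rose and 0 fell at day 42, with a median of -0.06. The initiation factors Eif2s1, Eif3b, Eif4a2 and Eif4e lay at -0.08, -0.09, -0.04 and -0.08, and Eif2s3, Eif3d and Eif5 at 0.11, 0.14 and 0.05. Of the 20 values on the list, 9 were above 0. Among 13 genes of ribosome assembly and ribosomal RNA transcription, 1 rose and 0 fell, and the median was 0.18. That 1 of 13, or 7.69%, was near the 5.8% of all probe sets kept. The one that rose was Myc, a transcription factor known to drive ribosome production, by 1.06 ± 0.33 (adjusted p = 0.0351, limma with Benjamini-Hochberg). Myc had 0.78 at day 3 and 0.01 at day 28, neither of which passed, and its part in the ribosomal protein difference was not tested. At day 42 nucleolin, Ncl, had 0.18 and the polymerase subunit Polr1b 0.14. In the chain of mTOR and the S6 kinases, 0 of 9 genes passed, with a median of -0.16, where Mtor had -0.31 (adjusted p = 0.243), Rps6kb1 -0.24 and Rictor 0.63 (adjusted p = 0.0552). Of 14 mitochondrial ribosomal proteins 0 rose and 1, Mrpl40, fell by 0.73 (adjusted p = 0.00138); their median was -0.29, and 13 of the 14 values were below 0. At day 28 none of these lists had a gene past the threshold, nor at day 3, and the medians for mitochondrial ribosomal proteins were -0.04 at day 28 and -0.25 at day 3.

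Other features of the day 42 arrays differed between the groups along with the ribosomal protein genes. The defining markers of heart muscle were present on each array, and 0 of 11 changed at day 42, with a summed signal of 561219 to 760095 in diabetic and 620541 to 834883 in control animals. Of 7 fibroblast markers 5 fell (Col1a1, Col1a2, Col3a1, Dcn and Lum), with a median of -1.67, and the summed signal of the list was 42945 to 58216 in diabetic animals, against 90333 to 99395 in control animals. Of 4 adipocyte markers 3 rose (Lipe, Fabp4 and Cfd), and the summed signal was 17480 to 25322 in diabetic animals, against 13808 to 15155 in control animals. One marker fell in each of the lists for lymphocytes (Cd74), erythrocytes (Hbb-b1) and skeletal muscle (Acta1), and 1 endothelial marker (Kdr) rose, while 0 of 5 macrophage, 0 of 4 smooth muscle and 0 of 2 platelet markers changed. No listed marker of fibroblasts or adipocytes lay under the floor on every array. The ratio of the GAPDH 3′ to 5′ control probe sets, a measure of RNA integrity, did not overlap between the groups at day 42. It was 1.09 to 1.14 in diabetic animals, against 1.14 to 1.23 in control animals. The same ratio for actin did overlap, at 1.13 to 1.27 in diabetic and 1.02 to 1.39 in control animals. That for hexokinase overlapped too, at 2.598 to 3.903 in diabetic and 3.128 to 5.066 in control animals. The part of cell makeup and RNA integrity in the ribosomal protein difference was not tested.

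Within single batches the median log2 difference of the 39 genes at day 42 was 0.51 on fluidics station 1 (2 diabetic against 3 control arrays) and 0.34 on station 2 (2 against 1), and all 8 arrays shared scan day and chip lot. At day 28 it was 0.25 within the 1 scan day that held both groups (3 against 4) and 0.17 within fluidics station 2 (1 against 4). Within the 2 chip lots it was 0.25 (1 against 1) and 0.23 (2 against 3). At day 3 it was 0.15 within one scan day (2 against 3) and -0.06 within the other (1 against 1). Within chip lots at day 3 it was -0.06 (1 against 3) and 0.09 (3 against 1), and within fluidics station 2 it was 0.17 (4 against 1), so the small day 3 median did not keep its sign in each batch. With chip lot as a block the day 3 median was 0.011.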

How the data were processed

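Per the submitters' processing notes, the deposited values are MAS5 signals, linear intensities of the probe sets; no MAS5 version is given in the sources used here. Each array's trimmed mean lay between 1502.3 and 1503 over all 8799 probe sets, controls included, so the authors had scaled the deposited intensities alike. The chip lot, the operator, the scan day and the fluidics station came from the headers of the run-setting files.

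All 8740 probe sets that are not controls had their signals floored at the pooled 10th percentile (30.5, log2 4.93) and were converted to log2. The 5244 whose mean reached the 40th percentile (log2 7.70) were tested. Group means of the 24 arrays in 6 groups of 4 were fitted with limma 3.58.1 in R 4.3.3 (18 residual degrees of freedom, eBayes with trend and robust options). Tests were two-sided, with Benjamini-Hochberg adjustment over all 5244 in each comparison and a threshold of 0.05. Labels name separate animals but no batches or pairs, and 4 arrays a group limit the precision of each value. Probe set signals of different genes were not compared.

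The members, gene lists and tests were chosen with earlier results of these data known. Named were each gene past the threshold in any comparison, the 4 largest and 4 smallest values in each comparison of 2 groups, the stalk genes, Rps6, Rps27a, Rpl3 and Rpl3l, and the genes whose probe sets differed most; values per array were given for the 12 smallest adjusted p and the fixed genes, and for other genes only to show an overlap. Alternatives changed the floor, the filter, the scaling, the variance model, the arrays fitted, the probe set per gene and blocks for replicate number, scan day, fluidics station and chip lot, and left out each array in turn. Scan day as a random block and differences within batches were added after the data were seen. Summaries and figures used pandas 2.3.3, numpy 2.4.6 and matplotlib 3.10.9 in Python 3.11.15. Start sequences came from a RefSeq promoter table of build GRCr8.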

Additional observations from a re-analysis of the deposited data

Results flagged for a closer look

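In 12 of the 162 groups of 4 arrays examined, over genes named above, 1 array lay apart from the other 3. The gap was more than Dixon's 95% critical value for groups of 4, and chance gives about 1 such group in 20. Diabetic day 3 replicate 1 was such an array in 4 genes, lowest for Rpl21 (14989.3), Rpl30 (146.8) and Rps10 (11107) and highest for Rps3 (23759). Diabetic day 3 replicate 3 was the highest for Rpl27a (27714). At day 28 the highest arrays were diabetic replicate 4 for Rpl19 (33298), diabetic replicate 1 for Rps10 (13691) and diabetic replicate 3 for Rps23 (25795). At day 42 diabetic replicate 3 was the highest for Rpl3 (14471), and control replicate 4 was the lowest for Rpl5 (130.0). Among day 3 controls, replicate 4 was the highest for Rpl35 (17027) and replicate 3 the lowest for Rps16 (15270).

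The diabetic effect on Rpl19 differed between days 42 and 3 by a test of the difference itself, with a log2 change in effect of 0.55 (adjusted p = 0.0424, limma interaction with Benjamini-Hochberg). All 4 diabetic arrays lay above all 4 control arrays at day 42, and the groups overlapped at day 3. The call was not stable, since leaving out any 1 of 13 arrays ended it. It was also lost in 5 of 13 alternative settings. Of all probe sets kept, 1.87% passed the same test.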

How the results depend on the processing

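Over the 10 comparisons, 278 of 316 alternative values for the count of genes past the threshold or for the median kept their level, 38 moved, and no median changed sign. At day 42 the count of rises in diabetic animals was 19; it was 10 after median centring, which ended 9 of the 20 named calls, and 7 among the 17 other probe sets of the same genes. It was 15 with plain eBayes, 27 when only the day 42 arrays were fitted, 17 to 23 under the other floors, filters, scalings and blocks, and 13 to 19 without 1 array; the median lay between 0.39 and 0.49 in all of these. Of 592 alternative values for single genes 498 kept their call, 94 lost it and 0 reversed. The deviations of same-numbered diabetic and control animals correlated between -0.19 and 0.40, and above 0.1 in only 2 of 12 pairs (number 4 at day 3 and number 3 at day 28), so the numbers were not taken to pair the animals; with the replicate block 20 genes rose at day 42 and the median stayed 0.43.

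At day 28 the count was 1 in place of 0 with chip lot as a block and for the other probe sets, and 0 to 1 without 1 array; the median was 0.31 after median centring, against 0.23. The day 3 median was 0.011 with chip lot as a block, and the change in median between days 28 and 3 was then 0.21, against 0.09. Between days 42 and 28 the median change in effect was 0.13 after median centring, against 0.20. Between days 42 and 3 the single call, Rpl19, became 0 with no filter, median centring, plain eBayes, the replicate block, the station block and the other probe sets, was 0 to 1 without 1 array, and became 3 calls when only the groups compared were fitted.

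In the control course, day 28 against day 3 gave 1 call in place of 0 after quantile normalization or median centring and 0 to 2 without 1 array, and a median of 0.062 after quantile normalization, against 0.13. Day 42 against day 28 gave 3 calls in place of 7 when only the groups compared were fitted and with station or lot as a block, 3 to 9 without 1 array, and 1 for the other probe sets, whose median was -0.21, against -0.14. In the diabetic course, the 4 calls of day 28 against day 3 became 2 with no filter, quantile normalization, median centring or plain eBayes, 1 with scan day as a random block, 0 with only the groups compared, the station block or the other probe sets, and 0 to 6 without 1 array; quantile normalization gave a median of 0.017, against 0.16. Day 42 against day 28 gave 3 calls among the other probe sets, against 8. Chip lot could not be fitted for day 28 against day 3, nor scan day as a fixed block between days. The cause of these changes was not tested.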
